A study of Mus musculus with 2 samples.

Results

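The cells described here were the *Folr2*-positive macrophages of the second run of a single cell RNA-seq study of chronic virus infection. They were barcodes chosen by their own counts: at least 5 unique molecular identifiers (UMIs, counted mRNA molecules) of *C1qa* and *C1qb* together, at least 1 of *Folr2* and none of *Cd3e* or *Cd79a*. This rule took 3016 of the 20568 barcodes of the run, 2600 of 9539 from PEP-WT and 416 of 11029 from PEP-619WW, out of 43965 barcodes in the whole series. The 4605 barcodes that passed the same rule but held no *Folr2* UMI (3214 in PEP-WT and 1391 in PEP-619WW) are called C1q barcodes without *Folr2*.

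PEP-WT mice were C57BL/6 animals with the wild type *Ptpn22* gene. PEP-619WW mice were C57BL/6 animals homozygous for the mouse counterpart of the human autoimmunity-associated *PTPN22* allele, made by CRISPR/Cas9. *Ptpn22* (GRCm38 chromosome 3, 103859795 to 103912247, plus strand) encodes the tyrosine phosphatase PEP, a brake on antigen receptor signalling. Per the methods, both genotypes received lymphocytic choriomeningitis virus clone 13 (LCMV-cl13) intravenously. Cells were taken at 8 days post infection (dpi), also per the methods. Per the labels, 4 to 5 age- and sex-matched mice were pooled per genotype, live CD45+ cells were sorted, and 1 library was made from each pool with 10x 3' chemistry. With 1 library per genotype there was no replicate, so no test was made. Every interval below is a 95% interval that covers counting error only.

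The labels contradict each other on the tissue: they name liver as tissue and tumor infiltrating cells as the sorted source, while the protocol and the methods describe splenocytes. The barcode numbers and the median genes per barcode of this run equal those that the methods give for the sorted spleen cells. No tissue is named here, since the labels conflict. Levels are given in CPM (UMIs of a gene over all UMIs of the same barcodes, on the usual CPM scale). A list of 6 Kupffer cell genes, for macrophages of liver, summed to 31.3 CPM in PEP-WT members against 9.63 CPM in its C1q barcodes without *Folr2*, and to 12.01 against 1.51 CPM in PEP-619WW. *Clec4f*, the defining lectin of Kupffer cells, had 0 UMIs in both genotypes, and *Cd5l* carried most of the sum, at 20.1 and 11.5 CPM. A list of 6 red pulp macrophage genes, for macrophages of spleen, summed to 1644 CPM in PEP-WT members against 1010 CPM without *Folr2*, and to 1365 against 928 CPM in PEP-619WW. *Hmox1*, the heme oxygenase that many macrophages use, carried most of that sum, at 1461 and 1325 CPM, against 352 and 285 CPM in the C1q barcodes without *Folr2* of the first run. *Spic*, the defining factor of red pulp macrophages, was at 4.22 and 3.20 CPM, against 133 and 102 CPM in the same barcodes of the first run. A list of 6 melanocyte genes summed to 106 CPM in PEP-WT members and 957 CPM in its barcodes outside both C1q classes. In PEP-619WW it summed to 27.5 and 13.2 CPM. In the first run's C1q barcodes without *Folr2*, *Dct*, *Tyrp1*, *Mlana*, *Tyr* and *Sox10* had 0 UMIs in both genotypes, and *Pmel* had 1 in each. Whether this bears on the tumor term of the labels, or that term on the infection, was not tested.

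Folate receptor beta, the product of *Folr2* (GRCm38 chromosome 7, 101839988 to 101857194, minus strand), is a surface receptor found mainly on tissue macrophages. Macrophages that carry it are known in several tissues as long-lived resident cells, often beside vessels, with LYVE1 and CD163 on their surface and little MHC class II. C1q, whose chains *C1qa* and *C1qb* lie together on chromosome 4, starts the classical complement pathway and is made largely by macrophages.

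The members carried the general macrophage genes. *C1qc*, which the rule did not use, was at 2097 CPM in PEP-WT and 1636 CPM in PEP-619WW. *Adgre1*, which encodes F4/80, was at 235 and 258 CPM, and *Csf1r*, the receptor for the macrophage growth factor, was at 199 and 354 CPM. *Cd68*, a lysosomal protein of macrophages, was at 973 and 700 CPM. Other markers of the label were present too, although their levels differed between genotypes: *Ccl8* was at 5303 and 1515 CPM, and *Igf1* was at 347 and 82.7 CPM.

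The second run differed from its labels in sex-linked transcripts. In PEP-WT, 2680 barcodes held *Xist* and no UMI of *Ddx3y*, *Eif2s3y*, *Kdm5d* or *Uty*, 2431 held a UMI of these Y-linked genes and no *Xist*, and 283 held both. In PEP-619WW, 3 barcodes held *Xist* alone and 5104 held Y-linked UMIs alone. The PEP-WT pool thus contained cells with either transcript and the PEP-619WW pool almost only cells with Y-linked transcripts. Among the PEP-WT members 802 held *Xist* alone, 976 held Y-linked UMIs alone and 167 held both, which was 8.59% of those with either. The same value was 3.89% in the PEP-WT C1q barcodes without *Folr2*. In PEP-619WW 260 members held Y-linked UMIs and 0 held *Xist*. Genotype, mouse pool, library and this difference cannot be told apart, so values of the PEP-WT members with *Xist* alone and with Y-linked UMIs alone are given beside the genotype results.

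*Folr2* was found in 2600 of 5814 C1q barcodes of PEP-WT, or 44.7% (exact binomial interval 43.4 to 46.0%). In PEP-619WW it was found in 416 of 1807, or 23.0% (21.10 to 25.03%). The share was thus higher in the PEP-WT library by more than the counting error. Median depth was 8043 UMIs in the C1q barcodes of PEP-WT and 6679 in those of PEP-619WW. When each barcode was thinned to 2000 UMIs the shares were 21.2% (20.1 to 22.4%) and 10.8% (9.39 to 12.4%), with 590 and 128 shallower barcodes left out.

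T and B cells should lack *Folr2*, so its share in their barcodes bears on free RNA. The gate was at least 2 UMIs of *Cd3e* for T cells or of *Cd79a* for B cells, and no C1q UMI. It left out any such barcode that had taken up C1q RNA, so these shares may understate free macrophage RNA. In PEP-619WW *Folr2* was found in 3 of 650 T cell barcodes, or 0.462%, and in 2 of 605 B cell barcodes, or 0.331%, at median depths of 4511 and 1797 UMIs. PEP-WT had 4 T cell barcodes and 0 B cell barcodes by the same gate, so no such background could be measured there. Only 1218 of the 9539 PEP-WT barcodes had no C1q UMI, so the gate itself limited these numbers. In these PEP-WT barcodes with no C1q UMI, *Folr2* was found in 87 of 1218, or 7.14%, at a median of 1534.5 UMIs. The corresponding share in PEP-619WW was 123 of 7854, or 1.57%.

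*Folr2* itself, which chose the members, was at 272 CPM in PEP-WT members and 273 CPM in PEP-619WW members. Of the PEP-WT members 949 held 1 *Folr2* UMI, 489 held 2 and 1162 held 3 or more, up to 31. Of the PEP-619WW members 203 held 1, 87 held 2 and 126 held 3 or more, up to 19. At the C1q threshold, 59 and 11 members had 5 or 6 C1q UMIs, while 96 and 11 barcodes with *Folr2* were just outside it with 3 or 4. A *Cd3e* or *Cd79a* UMI left out 12 and 38 barcodes that otherwise passed. Median depth was 11161.5 UMIs in PEP-WT members and 7759 in PEP-619WW members, against 5786.5 and 6325 in the C1q barcodes without *Folr2*.

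The first question was which genes set these barcodes apart from other C1q barcodes. In both genotypes the members carried more transcripts of the receptors *Lyve1*, *Cd163* and *Ednrb* and of the chemokine *Ccl8*. They carried fewer of *Ciita*, the regulator of MHC class II, and of the chemokines *Ccl17* and *Ccl22*. UMIs were summed over the barcodes of a class, and a gene was called when the CPM ratio was at least 2-fold in the same direction in both genotypes. Of 9413 genes with enough UMIs, 24 were called higher in the members, or 0.255%, and 37 lower, or 0.393%. The median log2 ratio over all tested genes was 0.02 in PEP-WT and 0.04 in PEP-619WW. Since *Folr2* chose both classes, these ratios describe the cells and test nothing. For all 24 and all 37 genes the counting intervals lay off 0 in both genotypes.

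*Lyve1* (chromosome 7, 110850607 to 110863239, minus strand), the receptor for hyaluronan, had the highest ratio among the genes called higher. It was at 60.3 CPM in PEP-WT members against 3.35 CPM without *Folr2*, a log2 ratio of 4.17 (3.85 to 4.51). In PEP-619WW it was at 21.6 against 0.602 CPM, a log2 ratio of 5.17 (3.98 to 6.65). After thinning to 2000 UMIs, 6.61% of PEP-WT members and 2.49% of PEP-619WW members had a *Lyve1* UMI, against 0.701% and 0.157% of the other C1q barcodes. Thinning lowers detection, so these shares serve for comparison and are not fractions of cells that express the gene. In PEP-619WW 0 of 561 thinned T cell barcodes held one, which allows a share of up to 0.655% by the exact interval. In barcodes with no C1q UMI the share was 0.638% (0.132 to 1.85%) in PEP-WT and 0.0401% in PEP-619WW. The PEP-WT C1q barcodes without *Folr2* were thus not above its barcodes with no C1q UMI by more than counting error.

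*Cd163*, the scavenger receptor for haptoglobin-bound hemoglobin, was at 35.4 against 5.50 CPM in PEP-WT and at 23.0 against 3.61 CPM in PEP-619WW. Its log2 ratios were 2.69 (2.43 to 2.96) and 2.67 (2.09 to 3.27). *Fcna*, which encodes ficolin A, a lectin that starts complement, was at 39.1 against 6.24 CPM in PEP-WT and at 13.9 against 1.71 CPM in PEP-619WW. The endothelin receptor gene *Ednrb* was more widely detected. It was at 167 against 25.8 CPM in PEP-WT and at 191 against 38.2 CPM in PEP-619WW, and it was found in 19.3% and 21.1% of thinned members against 4.83% and 5.95% of the others. In barcodes with no C1q UMI it was found in 5.53% and 1.81%, and in PEP-619WW in 0.178% of T cell and 1.33% of B cell barcodes. The PEP-WT C1q barcodes without *Folr2* were thus not above its barcodes with no C1q UMI. *Cbr2*, a carbonyl reductase, was at 202 against 58.8 CPM and at 225 against 40.9 CPM. These genes had higher levels in the members of both libraries by more than the counting error.

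The remaining named genes of this direction encode enzymes and membrane or signalling proteins. *Ltc4s*, the leukotriene C4 synthase, had log2 ratios of 1.66 in PEP-WT and 2.55 in PEP-619WW. *Npl*, a lyase of sialic acid breakdown, had 1.58 and 2.28, and *Aldh7a1*, an aldehyde dehydrogenase, had 1.27 and 1.62. *Padi4*, which converts arginine to citrulline in proteins, was at 9.51 against 3.22 CPM and at 12.8 against 4.52 CPM. Among membrane proteins, *Fxyd2*, a regulator of the sodium pump, had 1.68 and 2.35, and *Gja1*, the gap junction protein connexin 43, had 1.39 and 2.17. The transcription factor gene *Etv1* had 1.42 and 1.86, *Stard8* had 1.42 and 1.31, and *Cnrip1* was at 27.7 against 10.9 CPM and at 8.81 against 3.11 CPM. *Cd5l*, a secreted protein of resident macrophages, had 1.29 and 2.93. The other 9 genes called higher were *Akr1b8*, *Gas6*, *C4b*, *Ccl8*, *Gpr34*, *Timp2*, *Serpinb6a*, *Calml4* and *Rcn3*.

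Secreted products were among them. *Ccl8* (chromosome 11, 82115185 to 82116799, plus strand), a chemokine for monocytes and T cells, was at 5303 against 2343 CPM in PEP-WT and at 1515 against 388 CPM in PEP-619WW, log2 ratios of 1.18 (1.16 to 1.19) and 1.97 (1.91 to 2.02). *Gas6*, the ligand that bridges dying cells to the TAM receptors, was at 344 against 146 CPM and at 106 against 24.6 CPM. *Timp2*, an inhibitor of matrix proteases, was at 992 against 432 CPM and at 350 against 161 CPM. *Igf1* (chromosome 10, 87858265 to 87937042, plus strand), a growth factor listed as a marker of these cells, was at 347 against 228 CPM and at 82.7 against 44.6 CPM, and its log2 ratios of 0.61 and 0.89 stayed under the 2-fold call.

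**Figure D1:**
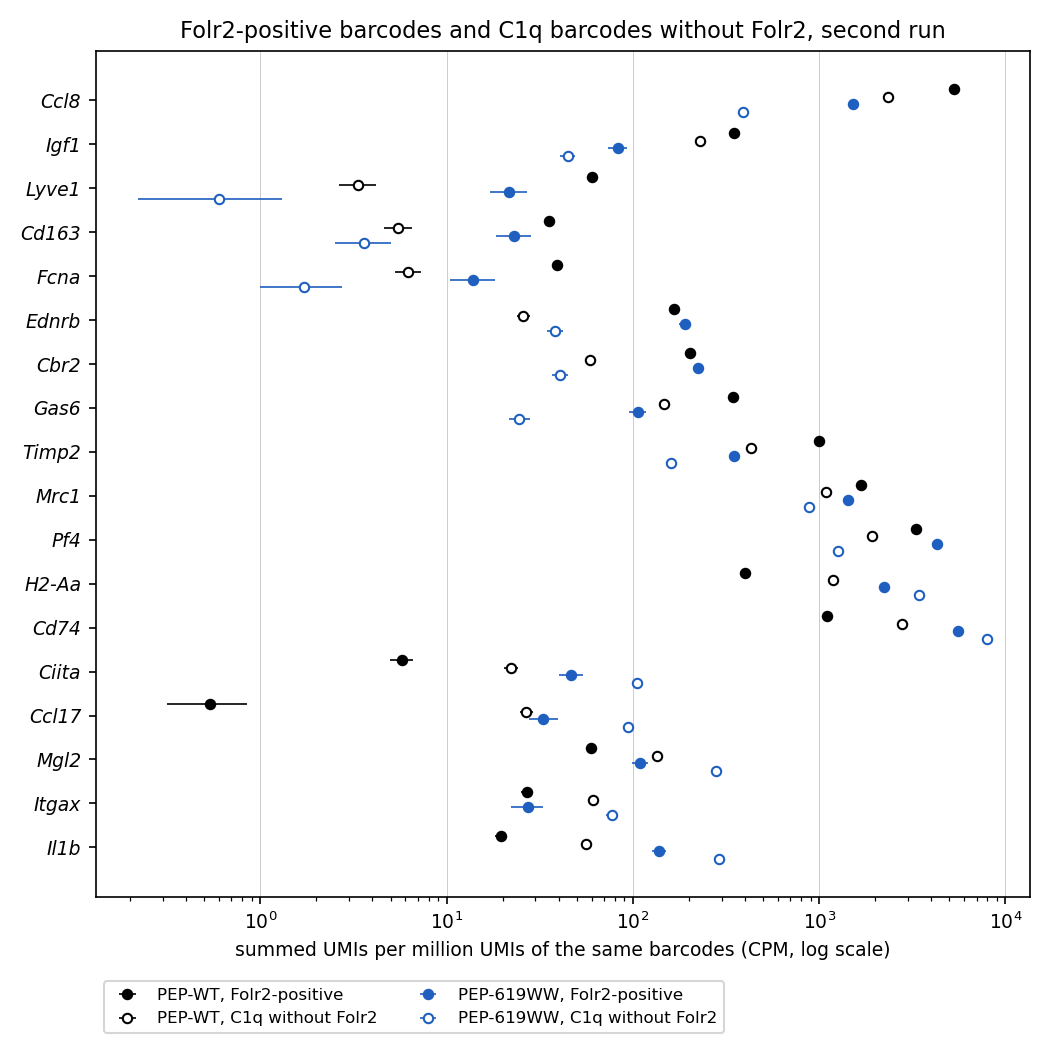
Level of 18 genes in CPM (log axis) in *Folr2*-positive barcodes (filled) and C1q barcodes without *Folr2* (open) of PEP-WT (black) and PEP-619WW (blue), with exact 95% Poisson intervals as lines. *Lyve1*, *Cd163*, *Fcna*, *Ednrb* and *Ccl8* have the filled symbol to the right in both genotypes, and *H2-Aa*, *Ciita*, *Ccl17* and *Il1b* have it to the left.

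Genes of antigen presentation lay on the low side. All 14 tested genes of a list of MHC class II and costimulation genes had a log2 ratio below 0 in both genotypes. Of these, 3 were called lower, *Ciita*, *H2-DMb1* and *Pdcd1lg2*, and the list's medians were -1.18 in PEP-WT and -0.73 in PEP-619WW. *Ciita*, the master regulator of MHC class II transcription, was at 5.73 against 22.2 CPM in PEP-WT and at 46.7 against 105 CPM in PEP-619WW. *H2-Aa*, an MHC class II chain, was at 399 against 1181 CPM in PEP-WT, a log2 ratio of -1.57 (-1.60 to -1.54). In PEP-619WW it was at 2215 against 3442 CPM, a log2 ratio of -0.64 (-0.67 to -0.60), which was not past 2-fold.

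*Ccl17*, a ligand of CCR4 made mainly by dendritic cells, was at 0.535 against 26.8 CPM in PEP-WT and at 33.1 against 94.4 CPM in PEP-619WW. Its log2 ratios were -5.65 (-6.41 to -4.98) and -1.51 (-1.79 to -1.24). *Ccl22*, which binds the same receptor, had -3.48 and -1.07. *Inhba*, a subunit of activin A, had -2.04 and -1.47, and *Hspb1*, a small heat shock protein, had -1.81 and -1.73. *Cd300e*, an activating receptor of myeloid cells, had -3.22 and -1.76, and *Ly6i* had -2.71 and -1.96. *Cdh1*, which encodes E-cadherin, had -1.86 and -1.85. *Ass1*, the argininosuccinate synthase, had -1.62 and -1.37, and *Il4i1*, an amino acid oxidase, had -1.40 and -1.47. The PEP-WT direction of *Il4i1* turned to 0.10 without barcodes holding other lymphocyte or neutrophil markers and to 0.15 in barcodes of 5000 to 20000 UMIs. *Tnfrsf9*, a costimulatory receptor, had -1.49 and -1.29, and *Asgr2* had -1.42 and -3.62. With at least 10 C1q UMIs *Asgr2* was at 0.19 in PEP-WT, the opposite direction. Other genes called lower included *Itgax*, which encodes CD11c, *Mgl2*, *Cxcl9*, *Il1b*, *Ear2* and *Flt1*. The conventional dendritic cell list summed to 4.07 CPM in PEP-WT members against 12.3 CPM without *Folr2*, and to 61.9 against 61.2 CPM in PEP-619WW. Its part in these ratios was not tested.

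Counts over the other gene lists are read against the 0.255% called higher and 0.393% called lower over all genes. Of 16 tested genes of a list of scavenger and endocytic receptors, which also holds the secreted protein gene *Cd5l*, 3 were called higher, the receptors *Lyve1* and *Cd163* and *Cd5l*, and 1 lower, *Mgl2*, with medians of 0.25 and 0.48. The mannose receptor gene *Mrc1* was at 1674 against 1082 CPM and at 1421 against 877 CPM, so it was abundant in both classes. Of 19 chemokines 1 was called higher, *Ccl8*, and 3 lower, *Ccl17*, *Ccl22* and *Cxcl9*, with medians of -0.17 and -0.06. *Pf4*, a chemokine of platelets and resident macrophages, was at 3293 against 1926 CPM and at 4299 against 1261 CPM, with log2 ratios of 0.77 and 1.77. Of 9 complement genes 1 was called higher, *C4b*, and of 14 genes of apoptotic cell uptake 1, *Gas6*. In the list of macrophage receptors *Gpr34* was called higher and *Itgax* lower out of 29. The immediate early and heat shock list held 1 call lower of 21 (*Hspb1*), the alternative activation list 1 of 17 (*Ear2*) and the inflammatory list 1 of 19 (*Il1b*).

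At those shares lists of this size would hold about 0 calls each, so a list with 0 calls is no result about its genes. There were 0 calls among 21 lipid-associated macrophage genes, 27 transcription factors, 22 cell cycle genes, 22 glycolysis genes, 16 genes of iron handling, 16 growth factors, 29 interferon-stimulated genes and 14 genes of *Ptpn22* and its partners. Likewise, none of the 17 tested folate transport and one-carbon genes other than *Folr2* was called, and their medians were 0.10 and -0.02. *Slc46a1*, the proton-coupled folate transporter, was at 2.35 against 1.57 CPM and at 1.60 against 0.803 CPM, with too few UMIs in PEP-619WW to be tested.

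**Figure D2:**
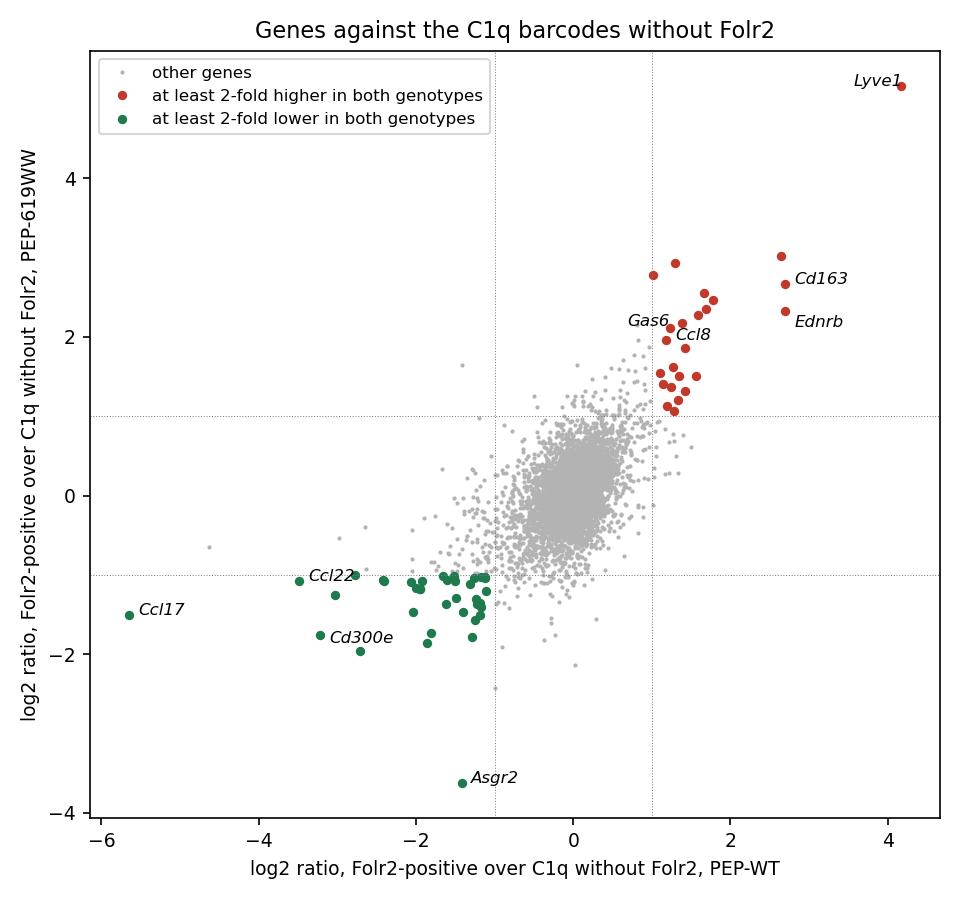
Log2 ratio of *Folr2*-positive over C1q barcodes without *Folr2* for each tested gene, PEP-WT on the x axis and PEP-619WW on the y axis, with dotted lines at 2-fold. Red points are the 24 genes called higher and green points the 37 called lower, and *Lyve1* lies alone at the upper right.

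Within the PEP-WT library the ratios were recomputed in the barcodes with *Xist* alone and in those with Y-linked UMIs alone, a choice made after seeing the data. Of the 24 genes called higher, 21 were at least 2-fold in both sets, and of the 37 called lower, 33 were, with no UMI minimum set on the parts. With the minimum used for the calls, 21 and 24 of the 24, and 21 and 23 of the 37, were called with *Xist* barcodes and with Y-linked barcodes, respectively, when the PEP-619WW barcodes were kept as they were. Without the minimum the exceptions were *Cd5l*, *Akr1b8* and *Rcn3* among the higher genes and *Klra2*, *Cxcl9*, *Bcl11a* and *Asgr2* among the lower ones. *Lyve1* had log2 ratios of 3.79 and 4.79 in the 2 sets, *Ednrb* had 2.52 and 3.28, and *Ccl17* had -6.83 and -4.21.

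The levels were also set against the number of *Folr2* UMIs in a barcode, from 0 through 1 and 2 to 3 or more. Depth differed with it, with medians of 5786.5, 7705, 10363 and 14883.5 UMIs in PEP-WT and 6325, 6451, 8172 and 9613.5 in PEP-619WW. In PEP-WT *Lyve1* was at 3.35, 16.2, 17.5 and 94.0 CPM, *Ednrb* was at 25.8, 60.4, 84.9 and 242 CPM and *Ccl8* was at 2343, 3519, 4141 and 6492 CPM. *H2-Aa* went the other way, at 1181, 717, 390 and 254 CPM. Each of these genes moved in 1 direction across the 4 classes. For *Lyve1*, *Ednrb* and *Ccl8* the barcodes with a single *Folr2* UMI lay nearer to those without it than to those with 3 or more.

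In PEP-619WW the classes with 1 and 2 UMIs were less ordered. *Ednrb* was at 38.2, 126, 124 and 306 CPM and *Ccl8* at 388, 1656, 1204 and 1546 CPM. *H2-Aa* was at 3442, 2509, 1961 and 2038 CPM. *Lyve1* was at 0.602, 7.76, 1.20 and 49.8 CPM, so that it was found mainly in the 126 barcodes with 3 or more *Folr2* UMIs. Summed over the MHC class II and costimulation list, the level in PEP-WT was 7036, 4451, 2633 and 1800 CPM, and in PEP-619WW it was 18962, 13565, 10652 and 11864 CPM.

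**Figure D3:**
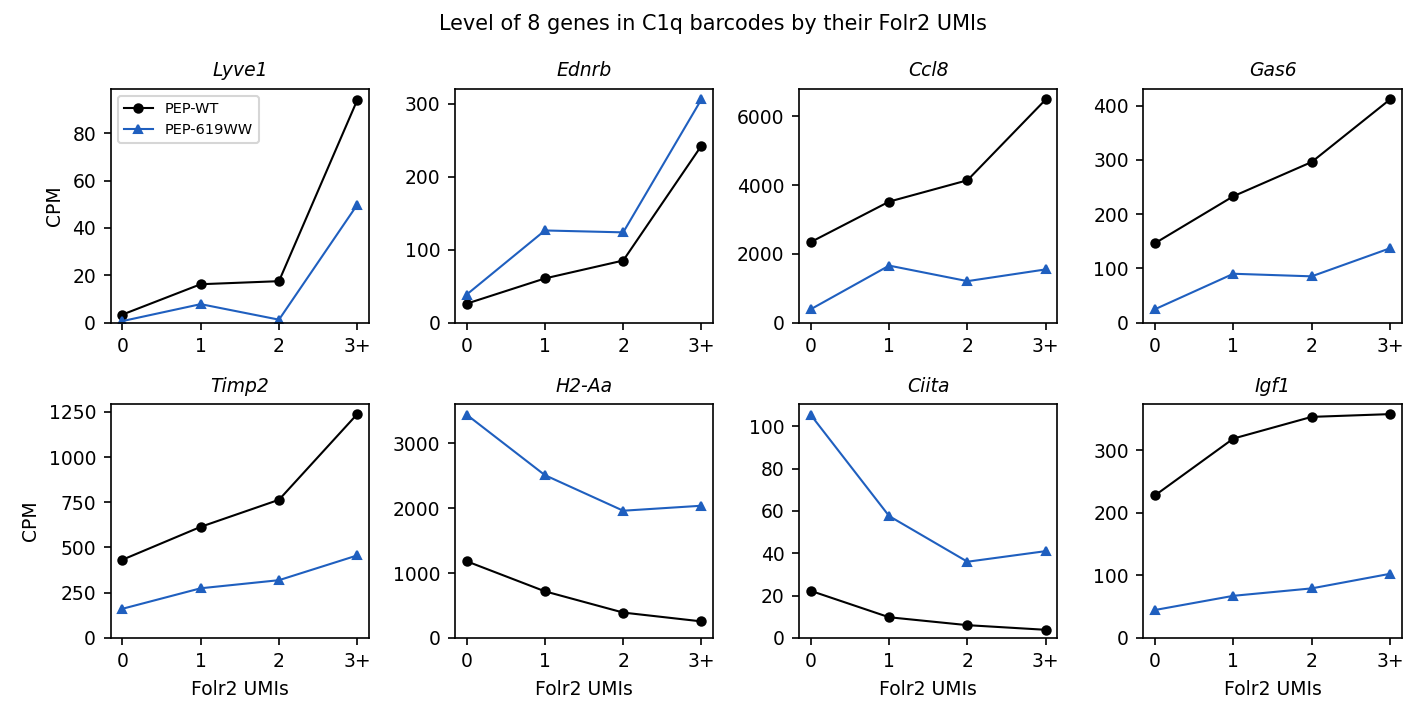
CPM of 8 genes (linear axes from 0) in C1q barcodes with 0, 1, 2 and 3 or more *Folr2* UMIs in PEP-WT (black circles) and PEP-619WW (blue triangles), without error bars. *Lyve1*, *Ednrb* and *Timp2* are highest and *H2-Aa* and *Ciita* are low at 3 or more UMIs in both genotypes.

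The members were not uniform among themselves. Of 2512 PEP-WT members thinned to 2000 UMIs, 166 held a *Lyve1* UMI. *Ednrb* was found in 62.7% of those (54.8 to 70.0%) and in 16.2% of the 2346 others (14.7 to 17.8%). *Fcna* was found in 36.1% against 4.13% and *Cd163* in 17.5% against 3.62%. *Cd209f*, a C-type lectin, was found in 12.7% against 1.36%. Conversely, *H2-Aa* was found in 17.5% against 34.6%, and *Igf1* in 33.1% against 44.1%. The first 4 genes therefore occurred more often in the same barcodes as *Lyve1* than in others, and *H2-Aa* and *Igf1* less often, by more than counting error. *Ccl8* was found in 74.1% (66.7 to 80.6%) against 80.0% (78.3 to 81.6%), intervals that overlap. In PEP-619WW 10 of 402 thinned members held a *Lyve1* UMI, of which 8 held *Ednrb*, 9 held *Cbr2* and 9 held *H2-Aa*. Among the others *H2-Aa* was found in 71.4% (66.7 to 75.9%), so the lower share seen with *Lyve1* in PEP-WT was not seen there, although 10 barcodes are too few for finer description.

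The second question was how members of the 2 genotypes differed. PEP-619WW members carried more transcripts of MHC class II, interferon-stimulated and monocyte genes than PEP-WT members, and fewer of *Ccl8*, *Igf1*, *Fabp4* and cell cycle genes. In barcodes outside both C1q classes the summed MHC class II, interferon-stimulated and monocyte lists were also higher in PEP-619WW. The summed cell cycle list was higher there too, unlike in the members. Of 10840 genes tested, 807 were at least 2-fold higher in PEP-619WW, or 7.44%, and 845 were lower, or 7.8%, around a median log2 ratio of 0.10. Counts over gene lists below are read against these shares, and a count near them is no result about the list. The counting interval lay off 0 for 801 and 723 of them and wholly past 2-fold for 395 and 266. Against the PEP-WT members with *Xist* alone and those with Y-linked UMIs alone, 657 of the 807 and 691 of the 845 were past 2-fold in both when no UMI minimum was set on these parts. With the minimum of 50 UMIs used for the calls, 565 of the 807 and 427 of the 845 were called against the members with *Xist*, and 647 and 618 against those with Y-linked UMIs, and 9423 and 9976 genes reached it. Of the called genes, 1546 were also tested in the C1q barcodes without *Folr2*. There 1514 had the same sign and 950 were called the same way, so the direction was mostly shared by the 2 classes. Where values of C1q barcodes without *Folr2* are set beside those of the members, they come from the same 2 libraries and are no separate evidence.

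All 7 tested monocyte genes were called higher in PEP-619WW members, with a median log2 ratio of 2.65, and the median in the C1q barcodes without *Folr2* was 2.58. *Ly6c2*, the surface antigen of classical monocytes, was at 7.31 CPM in PEP-WT members and 209 CPM in PEP-619WW members, a log2 ratio of 4.84 (4.63 to 5.05). In PEP-WT it was at 9.95 CPM in members with *Xist* and 2.99 CPM in members with Y-linked UMIs. *Ccr2*, the receptor that lets monocytes leave the marrow, was at 72.2 and 781 CPM, a log2 ratio of 3.44 (3.36 to 3.51). *Plac8* was at 48.2 and 835 CPM. After thinning, *Ccr2* was found in 11.2% of PEP-WT members and 63.9% of PEP-619WW members. The shares in barcodes with no C1q UMI were 27.4% and 51.5%. In PEP-619WW *Ccr2* was found in 31.0% of the T cell barcodes and 21.3% (16.2 to 27.3%) of the B cell barcodes. The PEP-WT share of members was thus not above that of its barcodes with no C1q UMI. The paper lists *Ccr2* among effector genes of CD8 T cells, and barcodes with no C1q UMI hold other cell types. These shares therefore do not measure free *Ccr2* RNA. Summed over the list, the level was 719 CPM in PEP-WT members and 867 CPM in its C1q barcodes without *Folr2*, against 3455 and 4023 CPM in PEP-619WW. In the barcodes outside both C1q classes it was 1949 CPM in PEP-WT and 3437 CPM in PEP-619WW.

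The 12 named genes with the largest rise also held the chemokines *Ccl17*, at 0.535 and 33.1 CPM, a log2 ratio of 5.95 (5.23 to 6.75), and *Ccl22*, at 0.772 and 21.1 CPM. Both were lower in members than in other C1q barcodes of either genotype. *Cd209a*, a lectin of monocyte-derived dendritic cells, was at 0.802 and 24.3 CPM, and *Fscn1*, an actin-bundling protein of mature dendritic cells, was at 0.951 and 18.7 CPM. *Il1r2*, the decoy receptor for interleukin-1, was at 1.81 and 22.1 CPM, and the protease inhibitor gene *Stfa2l1* was at 2.08 and 24.3 CPM. *Spon1*, a matrix protein gene, was at 1.37 and 34.2 CPM, *Ms4a4c* was at 20.8 and 285 CPM, and *BC147527* was at 2.32 and 24.8 CPM. Dendritic cell markers moved the same way. The conventional dendritic cell list, which includes *Cd209a*, summed to 4.07 CPM in PEP-WT members and 61.9 CPM in PEP-619WW members, with 3 of 3 tested genes higher at a median log2 ratio of 4.92. *Ccr7*, a homing receptor of migrating dendritic cells, was at 0.475 and 15.7 CPM, and *Flt3*, a growth factor receptor of dendritic cells, at 0.238 and 4.00 CPM. None of the 8 genes was at 0 in both genotypes. In the barcodes outside both C1q classes the list summed to 147 and 410 CPM. Its part in these ratios, and in those of the MHC class II genes, was not tested. In PEP-619WW members with 1, 2 and 3 or more *Folr2* UMIs, *Stfa2l1* was at 14.2, 70.8 and 7.32 CPM. *Fscn1* was at 36.2, 2.40 and 8.78 CPM in the same classes, so both levels rested unevenly on the members.

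Of 14 MHC class II and costimulation genes 10 were higher in PEP-619WW members and 0 lower, with a median log2 ratio of 1.45. *H2-Aa* was at 399 CPM in PEP-WT and 2215 CPM in PEP-619WW, a log2 ratio of 2.47 (2.43 to 2.51). *Cd74*, the invariant chain, was at 1101 and 5561 CPM, and *Ciita* was at 5.73 and 46.7 CPM, a log2 ratio of 3.03 (2.72 to 3.33). Members with *H2-Aa* after thinning were 33.5% in PEP-WT and 71.9% in PEP-619WW. In barcodes with no C1q UMI the shares were 44.3% and 53.2%, and in PEP-619WW T cell barcodes, which should lack the gene, the share was 24.2%. The PEP-WT share of members was thus not above that of its barcodes with no C1q UMI. In PEP-619WW B cell barcodes the share was 95.6%. Barcodes with no C1q UMI can thus hold cells that express *H2-Aa*, so their share does not measure free RNA. The costimulatory ligand genes *Cd80* and *Cd86* were called higher, with 1.10 and 1.05, while *Cd40* had 0.40 and *Cd274*, which encodes PD-L1, had 0.14. In the C1q barcodes without *Folr2* 9 of 14 were higher and 1 lower, with a median of 1.27. The list summed to 2641 CPM in PEP-WT members and 12296 CPM in PEP-619WW members. In the barcodes outside both C1q classes it summed to 7676.5 and 15373 CPM.

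Interferon-stimulated genes were higher in 25 of 29 and lower in 0, with a median log2 ratio of 1.94. *Oas3*, a sensor of double-stranded RNA, was at 7.37 and 63.0 CPM, a log2 ratio of 3.10. *Irf7*, the amplifier of type I interferon, was at 27.5 and 178 CPM, a log2 ratio of 2.70 (2.55 to 2.84), and *Ifitm3*, which blocks virus entry, was at 609 and 2356 CPM, a log2 ratio of 1.95 (1.92 to 1.99). *Isg15*, a ubiquitin-like modifier, was at 89.0 and 351 CPM. Genes under the 2-fold call included *Gbp7*, *Bst2* and *Gbp2*, with log2 ratios of 0.85, 0.49 and 0.09. In the C1q barcodes without *Folr2* 18 of 29 were higher, with a median of 1.15. The list summed to 2949 CPM in PEP-WT members and 8109 CPM in PEP-619WW members. In the barcodes outside both C1q classes it summed to 3407 and 5071 CPM.

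**Figure D4:**
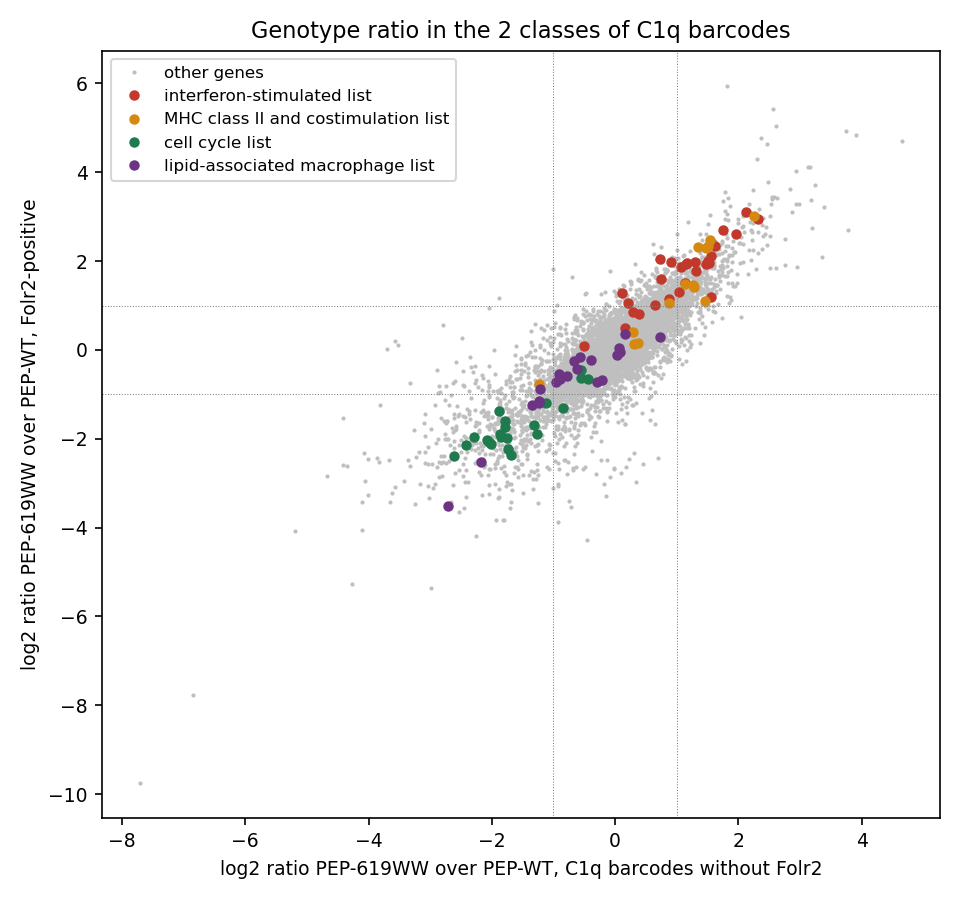
Log2 ratio of PEP-619WW over PEP-WT for each tested gene with a UMI in every class, in C1q barcodes without *Folr2* (x axis) and in *Folr2*-positive barcodes (y axis), with 4 gene lists coloured and dotted lines at 2-fold. Interferon-stimulated and MHC class II genes lie mostly at the upper right and cell cycle genes at the lower left, and both axes come from the same 2 libraries.

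Receptor and activation genes were called mostly in the same direction. Of 29 tested genes of a list of macrophage surface receptors and their adaptors (growth factor, cytokine, Fc, chemokine and purine receptors and integrins) 12 were higher and 1 lower, among them *Itgam*, which encodes CD11b, at 224 and 553 CPM, and *Cx3cr1*, the fractalkine receptor, at 16.9 and 50.2 CPM. The receptor called lower was *Gpr34*, at 21.2 and 6.67 CPM. Of 17 alternative activation genes 9 were higher and 1 lower, with *Retnla*, a secreted product of macrophages exposed to interleukin-4, at 157 and 1185 CPM, and *Ctsk*, a collagen-cleaving protease, at 92.9 and 21.1 CPM. Of 20 inflammatory genes 8 were higher and 1 lower, with *Il1b* at 19.6 and 138 CPM and *Il1a* at 4.96 and 2.14 CPM. Of 21 immediate early and heat shock genes 8 were higher and 0 lower, and *Fos* was at 128 and 320 CPM. Of 27 transcription factors 6 were higher, including *Klf2* and *Nr4a1*, and 1 lower, *Bhlhe41*, at 65.1 and 8.01 CPM. In the C1q barcodes without *Folr2* the counts higher for these lists, in the same order, were 6 of 29, 10 of 17, 6 of 21, 7 of 21 and 8 of 28. The counts lower there were 1, 1, 0, 0 and 1.

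Secreted products were called in both directions. Of 20 chemokines 9 were higher in PEP-619WW members and 4 lower. *Ccl8* was at 5303 CPM in PEP-WT and 1515 CPM in PEP-619WW, a log2 ratio of -1.81 (-1.85 to -1.77), and *Ccl12*, a monocyte chemokine, was at 1932 and 624 CPM. *Ccl9* was at 695 and 1845 CPM, and *Cxcl10*, an interferon-induced chemokine for T cells, was at 55.7 and 157 CPM. Of 17 growth factors 5 were higher and 4 lower. *Igf1* had a log2 ratio of -2.07 (-2.24 to -1.91), and *Gdf15*, a stress-induced cytokine, was at 144 and 24.3 CPM. *Tgfbi*, a matrix protein induced by TGF-beta, was at 224 and 743 CPM. *Ccl8* was found in 79.6% of thinned PEP-WT members and 25.6% of PEP-619WW members, and *Igf1* in 43.4% and 10.9%. Both were also found in PEP-WT barcodes with no C1q UMI, a class in which shallow macrophages cannot be told apart from other cells. In the 470 such barcodes left after thinning *Ccl8* was found in 38.9% (34.5 to 43.5%) and *Igf1* in 8.72%, against 1.30% for each in the 4985 of PEP-619WW, at median depths of 1534.5 and 2886.5 UMIs before thinning. In the T cell barcodes of PEP-619WW each was found in 0.178%. Too few PEP-WT barcodes passed the T and B cell gates for a share, so the part of free RNA in the PEP-WT shares was not tested. The members' shares were above those of the barcodes with no C1q UMI in each genotype.

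Of the genes that set members apart from other C1q barcodes, some were at like levels in the 2 genotypes and some were not. *Ednrb* had a genotype log2 ratio of 0.19 (0.08 to 0.30) and *Cbr2* of 0.15 (0.05 to 0.26). *Cd163* had -0.63 (-0.96 to -0.31). *Lyve1* had -1.48 (-1.82 to -1.16), *Fcna* had -1.49, *Gas6* had -1.70 and *Npl* had -2.01 (-2.25 to -1.78). Of 21 tested genes of the scavenger and endocytic receptor list 1 was higher and 7 were lower, including *Stab1*, at 482 and 239 CPM, and *Marco*, at 8.05 CPM in PEP-WT and 0 UMIs in PEP-619WW. Complement genes were called in both directions, 2 higher and 2 lower of 12, with *Cfb*, factor B of the alternative pathway, at 22.7 and 113 CPM. Of 15 genes of apoptotic cell uptake 2 were lower, against 7.8% over all genes. They were *Gas6* and *Mfge8*, the bridging protein for phosphatidylserine, which was at 10.7 and 1.07 CPM.

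Lipid-associated genes were lower in 5 of 21 and higher in 0, with a median log2 ratio of -0.58. *Fabp4*, a fatty acid binding protein, was at 667 CPM in PEP-WT and 58.2 CPM in PEP-619WW, a log2 ratio of -3.52 (-3.72 to -3.33). Within PEP-WT it was at 1043 CPM in members with *Xist* and 482 CPM in members with Y-linked UMIs, both above PEP-619WW. *Gpnmb*, a lysosomal glycoprotein, had a log2 ratio of -2.51 (-2.67 to -2.36), and *Trem2*, a lipid-sensing receptor, was at 663 and 282 CPM. *Apoe*, the lipid carrier, had a log2 ratio of -0.16. Of 17 iron genes 3 were higher and 3 lower, and the transferrin receptor gene *Tfrc* was at 173 and 29.1 CPM. In the C1q barcodes without *Folr2* 6 of 21 lipid-associated genes were lower and 0 higher, with a median of -0.67. The lipid-associated list summed to 26435 and 10771 CPM in the PEP-WT and PEP-619WW barcodes outside both C1q classes.

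Cell cycle genes were lower in 18 of 22 and higher in 0, with a median log2 ratio of -1.89. *Mki67*, which marks dividing cells, was at 170 CPM in PEP-WT members and 43.2 CPM in PEP-619WW members, a log2 ratio of -1.97 (-2.21 to -1.75). It was found in 17.9% and 3.48% of thinned members and in 6.81% and 5.78% of barcodes with no C1q UMI. *Top2a*, which untangles DNA before division, was at 158 and 39.0 CPM. The C1q barcodes without *Folr2* had a list median of -1.77 and 17 of 22 genes lower. The list summed to 4131 CPM in PEP-WT members and 1970 CPM in PEP-619WW members. In the barcodes outside both C1q classes it summed to 2753 and 3078 CPM. Of 21 folate and one-carbon genes 4 were lower and 1 higher. *Tyms*, the thymidylate synthase that dividing cells use, had a log2 ratio of -2.35, *Shmt1* had -1.61, and *Aldh1l1* was at 1.60 and 0.801 CPM. A level of 0.801 CPM is 3 UMIs over the PEP-619WW members, too few to place the *Aldh1l1* ratio closely. Of 22 glycolysis and hypoxia genes 1 was lower, *Adm*, and 0 were higher, against 7.8% and 7.44% over all genes.

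*Ptpn22*, the gene mutated in PEP-619WW, was at 15.4 CPM in PEP-WT members and 37.9 CPM in PEP-619WW members, a log2 ratio of 1.30 (1.02 to 1.57). In the C1q barcodes without *Folr2* it was at 24.2 and 38.3 CPM, a log2 ratio of 0.67 (0.48 to 0.85). Counts per gene do not show the codon that was changed, so this level does not check the labels. Of its 15 listed genes and partners 2 were higher, *Ptpn22* and the kinase gene *Fgr*, at 12.2 and 69.9 CPM, and 1 lower, *Src*, at 2.67 and 0.534 CPM. Over all genes 7.44% were higher and 7.8% lower, so these counts are no result about the list. *Csk*, the kinase that binds PEP, had a log2 ratio of 0.90.

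Among the named genes with the lowest ratios, hemoglobin transcripts and *Xist* came first. *Xist* had 8149 UMIs in PEP-WT members and 0 in PEP-619WW members, at least 302-fold lower when 3 UMIs over the PEP-619WW members are taken as the floor. *Hbb-bs*, a beta-globin gene, had 7725 UMIs and 1 UMI, a log2 ratio of -9.75 (-15.05 to -7.27), and *Hbb-bt* had 1965 and 1. *Hba-a1* had 2025 and 0 UMIs, and *Hba-a2* had 1517 and 0. The erythroid markers summed to 13370 CPM in the PEP-WT barcodes outside both C1q classes and to 57.7 CPM in those of PEP-619WW, so hemoglobin differed between the libraries in other barcodes too. The others, *Hist1h2bm*, *Speg*, *Hist1h3d*, *Fkbp11*, *Nnmt*, *H2-M2* and *Ddias*, had 1 UMI each in PEP-619WW members and 132 to 371 UMIs in PEP-WT members. The upper ends of their intervals ranged from -2.88 to -1.37 on the log2 scale. Genes at 0 UMIs in PEP-619WW members were ranked as if at 3, so some, such as *Marco*, ranked behind these.

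Transcripts of other cell types moved with genotype as well. The melanocyte list summed to 106 CPM in PEP-WT members and 27.5 CPM in PEP-619WW members, the neutrophil list to 196 and 675 CPM, the T cell list to 3.27 and 30.7 CPM and the NK cell list to 0.297 and 22.4 CPM. In the barcodes outside both C1q classes they summed to 957 and 13.2 CPM, 4833 and 2916 CPM, 154 and 851 CPM, and 26.5 and 580 CPM, respectively. Their part in the genotype ratios was not tested.

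Within PEP-WT, members with *Xist* alone and members with Y-linked UMIs alone were compared in the same way, at median depths of 10392.5 and 14362.5 UMIs. *Xist* and the 4 Y-linked genes, which chose these sets, were not counted. Of 10271 genes 50 were at least 2-fold higher with *Xist*, or 0.487%, and 51 were lower, or 0.497%. Those higher included *Gdf3*, a TGF-beta family ligand, at 65.3 against 16.5 CPM, *Cd5l* at 31.9 against 11.6 CPM, the iron exporter gene *Slc40a1* at 55.4 against 22.6 CPM and *Fabp4* at 1043 against 482 CPM. Those lower included *Ccl24*, an eosinophil chemokine, at 44.3 against 163 CPM and *Ltc4s* at 40.5 against 100.2 CPM. Cells of different mice made up these sets, so sex and individual cannot be told apart.

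**Figure D5:**
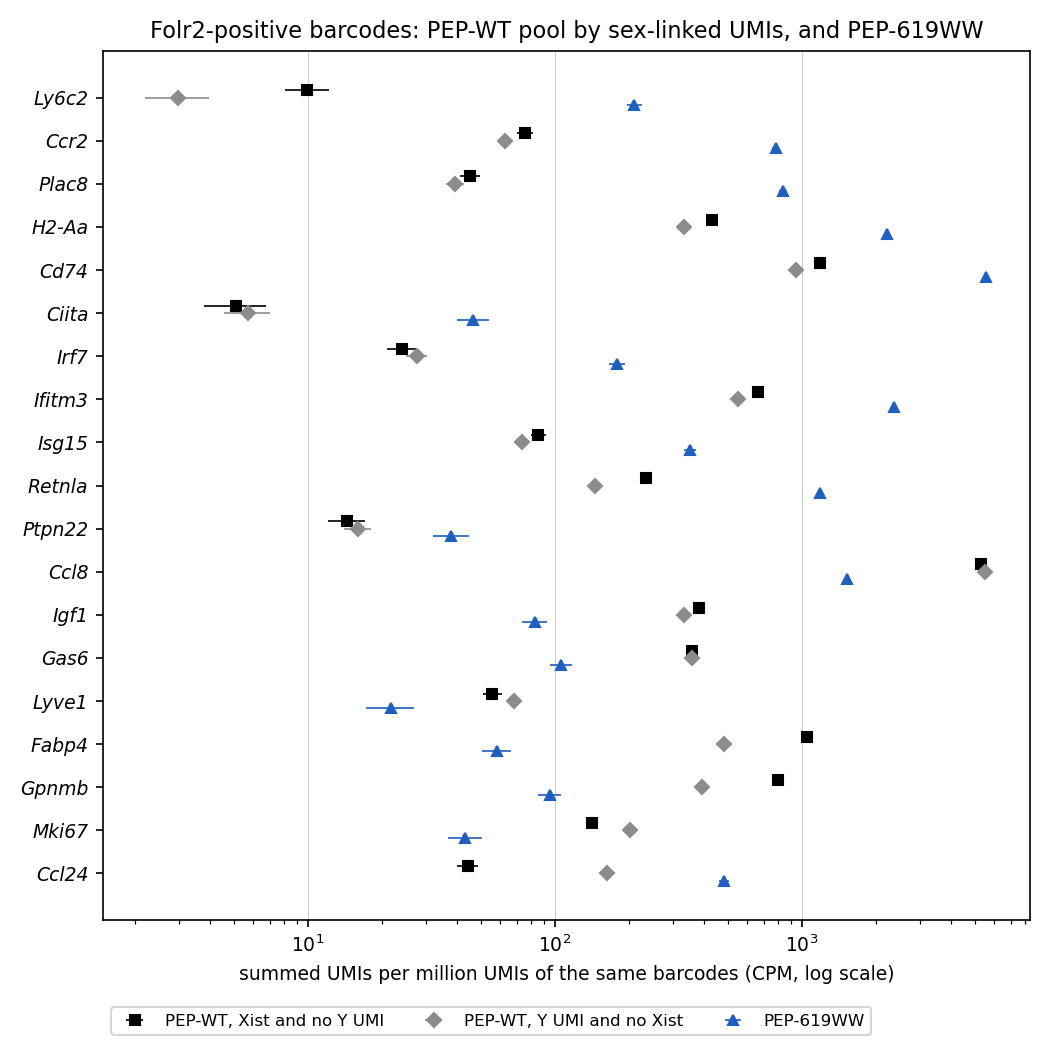
CPM (log axis) of 19 genes in *Folr2*-positive barcodes of PEP-WT with *Xist* and no Y-linked UMI (black squares), of PEP-WT with Y-linked UMIs and no *Xist* (grey diamonds) and of PEP-619WW (blue triangles), with exact 95% Poisson intervals. For *Ccr2*, *H2-Aa* and *Irf7* both PEP-WT sets lie to the left of PEP-619WW, and for *Ccl8*, *Igf1* and *Fabp4* both lie to its right.

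The first run held almost no such cells. By the same rule it had 0 members in PEP-WT and 1 in PEP-619WW, beside 282 and 236 C1q barcodes without *Folr2*. In these, *Lyve1* and *Gas6* had 0 UMIs, *Ccl8* was at 10.0 and 12.3 CPM and *Mrc1* was at 11.8 and 18.9 CPM. *Spic* and *Vcam1*, genes of red pulp macrophages, were at 133 and 102 CPM and at 221 and 247 CPM. In second-run PEP-WT members with 1, 2 and 3 or more *Folr2* UMIs *Vcam1* was at 163, 168 and 128 CPM. In those of PEP-619WW it was at 24.6, 39.6 and 13.2 CPM. All barcodes of that run with a sex-linked transcript held *Xist*: 10410 in PEP-WT and 5812 in PEP-619WW held it alone, and 3 in PEP-WT held a Y-linked UMI too. Neither the labels nor the methods say how this run relates to the second.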

How the data were processed

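The authors deposited, for each library, a filtered gene-by-barcode matrix of UMI counts, whole numbers and not normalized, made with Cell Ranger (6.0.0 per the submitters' processing notes) on GRCm38. The methods name another version of Cell Ranger. Per the labels live CD45+ cells were sorted before 10x 3' capture. Here the second run was used: its 2 libraries held 70500076 and 55504449 UMIs. The libraries shared 31 barcode sequences, 0 of them between members. All deposited barcodes were kept. No doublet caller was run, and barcodes with a *Cd3e* or *Cd79a* UMI were left out. UMIs were summed per genotype and class and divided by the summed total (CPM). Ratios have exact conditional intervals (scipy 1.17.1), shares exact Clopper-Pearson intervals. Genes with at least 50 UMIs were tested (in both classes together in each genotype, or in both genotypes together), and at least 2-fold was called. Rule genes were not counted. The script was tested on simulated data.

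The genes named are the 15 highest and 10 lowest called between classes, ranked by the genotype nearer 0, and the 12 highest and 12 lowest between genotypes with at least 100 UMIs, plus members of 18 gene lists and 22 marker lists (5 of 492 symbols unmatched). Other called genes were named after their values were seen. In the ranking between genotypes a gene at 0 UMIs was given 3, so it could rank behind a gene with 1 UMI. The members, gene lists and marker lists were chosen with earlier results of these data known. Coordinates are from GENCODE vM21. No paired analysis was possible because each genotype had 1 library per run. Alternatives are given in the closing section. Values of a few genes are not reported here.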

Additional observations from a re-analysis of the deposited data

Results flagged for a closer look

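*Gbp2b*, a guanylate-binding protein gene, was the only tested gene at least 2-fold in opposite directions between members and C1q barcodes without *Folr2*. Its log2 ratio was -1.41 in PEP-WT, from 136 and 260 UMIs, and 1.64 in PEP-619WW, from 34 and 29 UMIs. Within PEP-WT members it was at 0.838 CPM with *Xist* and 4.94 CPM with Y-linked UMIs.

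The interferon-stimulated list also lay on opposite sides of 0, with median log2 ratios of -0.35 in PEP-WT and 0.39 in PEP-619WW. Of its 29 genes 21 were below 0 in PEP-WT and above 0 in PEP-619WW, 4 were above in both and 4 below in both. *Irf7* had -0.35 and 0.59, and *Isg15* had -0.58 and 0.50. Neither difference between the genotypes was tested, since each had 1 library.

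The first run, which the comparisons did not use, held 282 C1q barcodes without *Folr2* in PEP-WT and 236 in PEP-619WW.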

How the results depend on the processing

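As reported, the share of C1q barcodes with *Folr2* was 44.7% in PEP-WT and 23.0% in PEP-619WW, 24 genes were called higher and 37 lower in members, and 807 higher and 845 lower in PEP-619WW members. The cause of each shift below was not tested unless fewer barcodes or genes entered by construction. The 2 shares were 48.8% and 27.3% with at least 10 C1q UMIs, 28.4% and 11.8% with at least 2 *Folr2* UMIs, 32.3% and 20.5% without barcodes holding another lymphocyte or neutrophil marker, and 21.2% and 10.8% after thinning to 2000 UMIs. The PEP-WT share was 47.3% with at least 500 genes and at most 10% mitochondrial UMIs. The share was higher in PEP-WT under each of these settings. At least 2 *Folr2* UMIs gave 66 genes lower in members. Without the marker-holding barcodes, which kept 541 and 83 members, the counts were 7 and 22 in members and 362 and 522 between genotypes, of which 6, 8, 193 and 241 were among the genes called as reported, so most reported calls were not made there. Thinning gave 11 and 22, and 431 and 478. A minimum of 200 UMIs gave 9 and 20, and 500 and 465. Centring on the median gene gave 658 genes higher and 947 lower in PEP-619WW, and the mean of per-barcode CPM gave 660 and 939. With at least 1 UMI on each side in place of the minimum, the counts in members were 120 and 95. Between genotypes 2060 genes were then higher and 1021 lower in PEP-619WW. That setting leaves out genes at 0 on either side, so it changes more than the level of the minimum. The near balance of higher and lower between genotypes thus depended on the setting. Of alternatives chosen after seeing the data, PEP-WT barcodes with *Xist* alone gave 479 genes lower in PEP-619WW, of 9423 that reached the UMI minimum, those with Y-linked UMIs alone a PEP-WT share of 51.0%, barcodes of 5000 to 20000 UMIs shares of 50.7% and 25.8%, and the absence of hemoglobin and melanocyte UMIs a PEP-WT share of 40.5%. Of the named genes, 2 changed sign in PEP-WT, *Asgr2* (0.19 with at least 10 C1q UMIs) and *Il4i1* (0.10 without marker-holding barcodes, 0.15 at 5000 to 20000 UMIs). The shares and counts kept within their counting interval or within 1.5 times in the other 46 cases. For the ratios of single named genes, 620 values moved by less than the counting interval, 197 by more and 3 changed sign. With 416 members, PEP-619WW sums rested on 3746364 UMIs against 33662821 in PEP-WT, so a gene at 0 there may lie anywhere up to 0.801 CPM. No paired analysis was possible because each genotype had 1 library per run.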
